A study of Mus musculus with 6 samples.

Results

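The microRNA loci described here are 294 genes measured on 6 arrays in mouse thymocytes at the double-negative (DN) stage, T-cell precursors with neither CD4 nor CD8. They are every gene of the array's annotation whose single symbol starts with Mir and a digit or with Mirlet7, apart from the mir-181 loci, out of 19937 genes with a single symbol. Where a locus had more than 1 probe set (2 loci, Mir713 and Mir99ahg), the one with the highest mean over the 6 arrays stood for it. Of the 294 symbols, 4 end in hg and name the long host transcript of a microRNA (Mir17hg, Mir99ahg, Mir100hg and Mir670hg). All others name the microRNA gene itself.

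A first group of 3 arrays, labelled DNTLX3+ and called tumoral, holds sorted DN thymocytes of wild-type mice that received a retrovirus (pMSCV-GFP-TLX3) carrying TLX3, a homeobox gene active in some cases of T-ALL (acute lymphoblastic leukaemia of the T lineage). Transduced cells were grown for 4 to 5 weeks on irradiated OP9-DL1 stroma, which presents a Notch ligand, with interleukin 7 and Flt3 ligand. The other 3 arrays, labelled RAG-/- and called control, hold DN thymocytes of mice that lack Rag2, which is needed to assemble antigen receptor genes, so that their thymocytes stop at the DN stage. The protocol names C57Bl/6 mice of 4 to 6 weeks for all samples. Whether the Rag2-/- cells were cultured is unclear from the labels, and no array of wild-type cells with the empty pMSCV-GFP virus was analysed here. Genotype, virus and possibly culture therefore cannot be told apart. Nothing in the labels ties the replicates to separate mice or cultures, and the p-values therefore cover the spread of these samples only, which may be technical.

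A microRNA gene is transcribed into a long primary RNA, often from within a host gene or as a polycistron with several hairpins. Drosha and Dgcr8 cut out the hairpin, Dicer1 cuts the hairpin to a short duplex, and an Argonaute protein keeps 1 strand, which finds target messages mainly through its seed, bases 2 to 8. In thymocytes and T-ALL the mir-17-92 polycistron is known as a growth-promoting unit, and the mir-15/16 family as a brake on cyclins and BCL2. The probe sets read RNA of the locus. Which of primary transcript, hairpin and mature strand gave the signal was not tested, so the values are called levels of the locus and not of the mature microRNA.

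The mature strands of the mir-15/16 and mir-17-92 loci are shown because several of these loci fell together and members of a family share their seed, given in capitals. The sequences are those of RefSeq on build GRCm38.p6, in which 264 of the 294 loci have a mature strand. The miR-15/16 strands come from Mir15a (chr14:61632075-61632096, minus strand), Mir15b (chr3:69009775-69009796, plus strand), Mir16-1 (chr14:61631936-61631957, minus strand) and Mir16-2 (chr3:69009918-69009939, plus strand), and Mir16-1 and Mir16-2 encode the same strand.
miR-15a-5p: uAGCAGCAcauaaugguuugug
miR-15b-5p: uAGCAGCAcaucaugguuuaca
miR-16-5p: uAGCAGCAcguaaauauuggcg
The strands of the mir-17-92 polycistron, on the plus strand from Mir17 (chr14:115043684-115043706), Mir18 (chr14:115043867-115043889), Mir19a (chr14:115044048-115044070) and Mir20a (chr14:115044183-115044205), carry 3 different seeds, of which miR-17 and miR-20a share the first, miR-18a has the next and miR-19a has the last.
miR-17-5p: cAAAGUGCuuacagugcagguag
miR-20a-5p: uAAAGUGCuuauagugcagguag
miR-18a-5p: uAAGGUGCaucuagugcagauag
miR-19a-3p: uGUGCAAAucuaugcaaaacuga

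Most of these loci were dim. The median log2 level of the 294 was 5.05, against 6.26 over all 28192 tested probe sets, and 211 of them had both group means under 6.24, the median of the array medians. A value under that line may be background, so the size of a difference there is uncertain, and folds are given below only where both means lay above it. The interquartile range of all values was 2.47 to 2.85 log2 units on the TLX3 arrays and 3.09 to 3.18 on the Rag2-/- arrays. The median SD of a locus was 0.24 in the TLX3 arrays and 0.13 in the Rag2-/- arrays. Of 12 DN thymocyte markers, 1 rose, 3 fell, 4 more passed the adjusted p alone and 4 did not pass. Rag1, Cd3g and Thy1 averaged above 11 on the log2 scale in both groups, while Ptcra (-1.11), Il2ra (-1.19) and Dtx1 (-1.23) fell in TLX3 cells. Of the genes that the DN gate excludes, Cd4 stayed under the array medians in both groups and Cd8a was near them (6.38 and 6.25), but Cd8b1 rose by 1.52, with a mean of 6.996 in TLX3 arrays, above the array medians, and 5.48 in Rag2-/- arrays. Markers of other cells moved with the groups. Of 20 myeloid and dendritic markers 17 fell, their summed linear level being 1166 to 1348 on the TLX3 arrays and 8818 to 10388 on the Rag2-/- arrays. Of 14 thymic epithelial markers 7 fell (sums of 1768 to 1974 against 7322 to 13089), and of 13 NK markers 9 fell (1499 to 1988 against 3128 to 3735). In the TLX3 arrays 16, 6 and 10 of these markers averaged under the array medians, in the Rag2-/- arrays 0, 1 and 2. Fewer cells of a type and less RNA per cell cannot be told apart in these bulk samples, and the part of such cells in the results below was not tested.

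More microRNA loci were called lower than higher in TLX3 cells, and the largest differences were falls. Of the 294, 30 fell and 15 rose, by limma with an adjusted p under 0.05 and a log2 difference (TLX3 minus Rag2-/-, as throughout) of 1 or more in size. That is 10.2% and 5.1% of the loci, where 5.41% of all probe sets fell and 2.59% rose. Falls likewise outnumbered rises over all probe sets (1525 against 729), so the direction of the split was not particular to these loci. The split of the loci moved with the scaling. A repeat of the quantile normalization gave 37 falls and 11 rises, where 4.84% of all probe sets fell and 2.59% rose. Cyclic loess gave 40 falls and 9 rises, where 5.16% of all probe sets fell and 2.29% rose. At the adjusted p alone, 61 loci were lower (20.7%, against 18.2% of all probe sets) and 80 were higher (27.2%, against 24.6%). There the order of the 2 directions turned, with 83 lower and 54 higher under the repeated quantile normalization, and 89 lower and 52 higher under cyclic loess. Mir713 counts among the 61 lower loci by the probe set that stood for it (-0.77, limma adjusted p = 0.0251). Its other probe sets were higher, at 0.96 (limma adjusted p = 0.00724) and 0.73 (limma adjusted p = 0.00482). The median difference of the loci was 0.15, against 0.13 over all probe sets, and its sign turned with the scaling. It was -0.0416 with quantile normalization again, against 0.043 over all probe sets, and -0.10 with cyclic loess, against 0.005. The groups did not overlap for 71 loci with the TLX3 arrays below (24.1%, against 24% of all probe sets) and 101 with them above (34.4%, against 33.5%). Differences ran between -2.19 and 1.38. Of the 30 falls, 7 had both group means above the array medians and 13 had both under them.

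**Figure D1:**
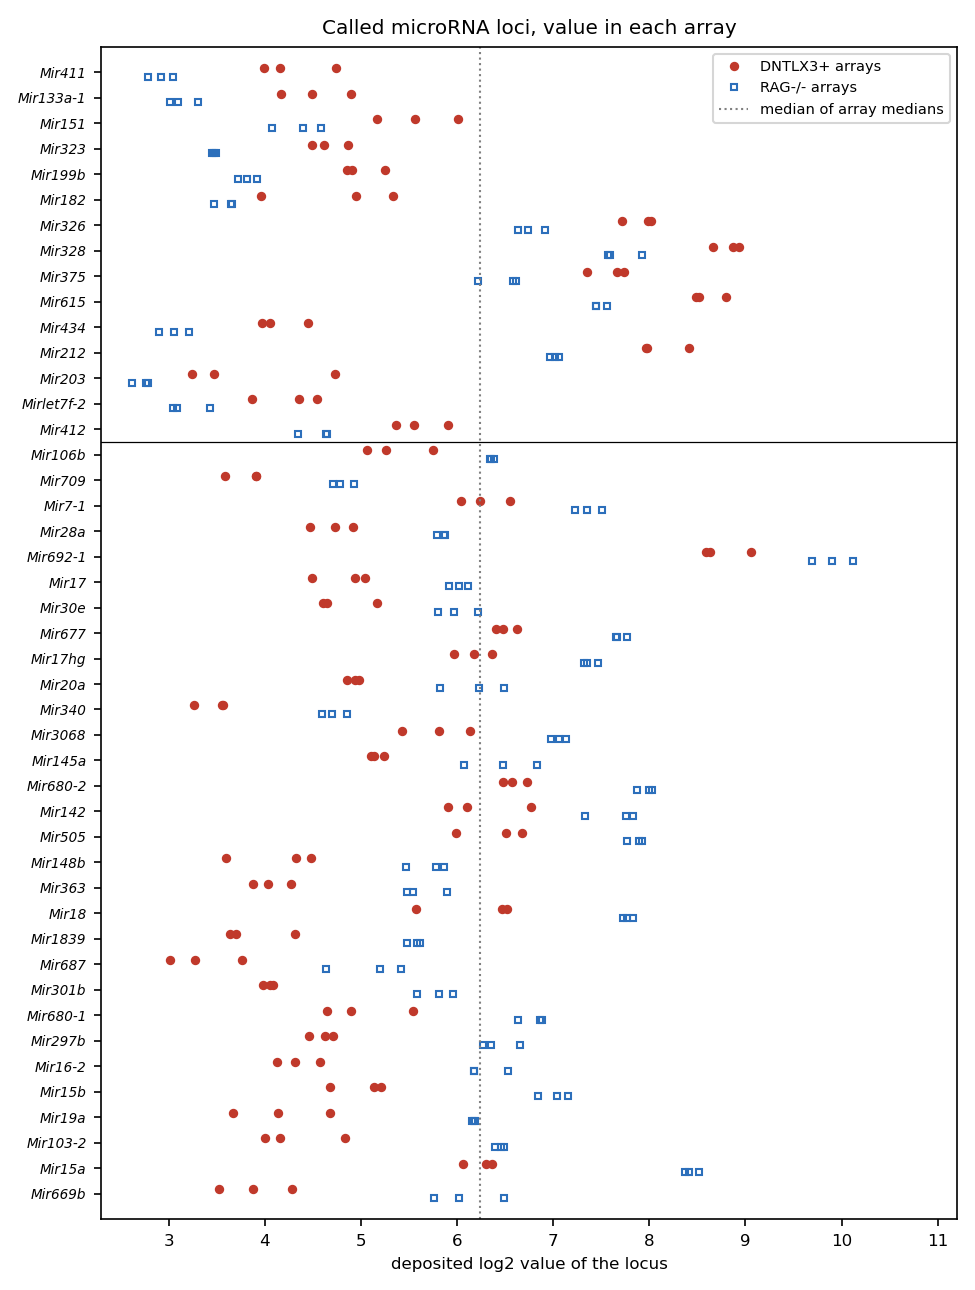
Deposited log2 value (horizontal axis) of the 45 called microRNA loci in each array, ordered by difference, with 3 TLX3 arrays as filled circles above 3 Rag2-/- arrays as open squares; the dotted line is the median of the array medians and the solid line parts the 15 loci that rose from the 30 that fell. The groups do not overlap for any of the 45, and 10 of the 15 rises lie wholly left of the dotted line. For 13 of the 30 falls both group means lie left of that line.

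**Figure D2:**
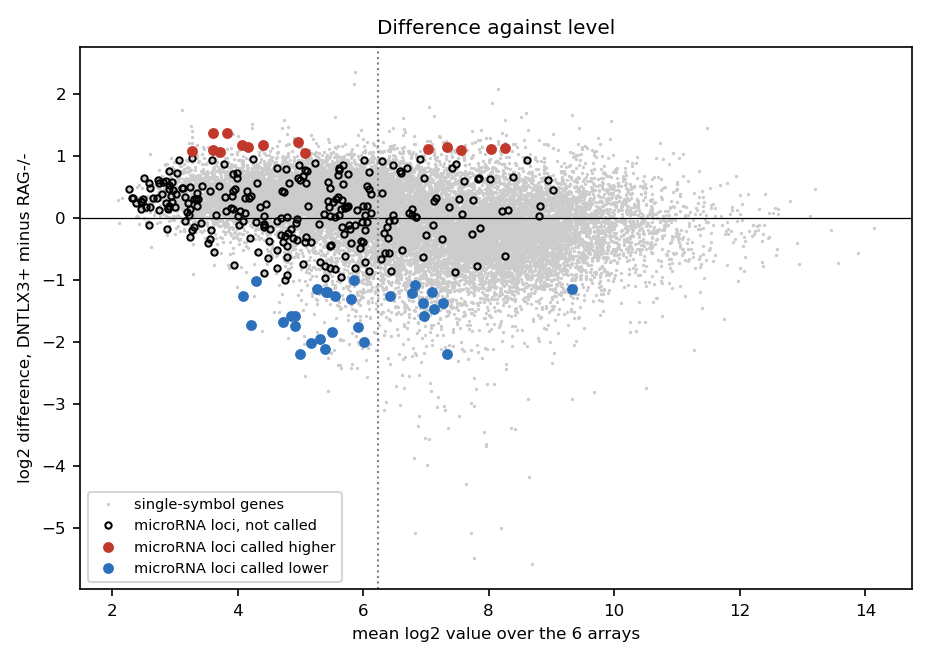
Log2 difference, TLX3 minus Rag2-/-, against the mean log2 value over the 6 arrays for single-symbol genes (grey) and microRNA loci (circles, filled where called). Filled circles below 0 outnumber those above it, and most microRNA loci lie at the dim end.

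The mir-15/16 family held 3 of the largest falls. Mir15a stood at 6.30, 6.06 and 6.37 in the TLX3 arrays and at 8.41, 8.37 and 8.52 in the Rag2-/- arrays. All 3 TLX3 values lay far under the lowest Rag2-/- value. It was 4.56-fold lower (log2 difference -2.19 ± 0.13 SE, limma adjusted p = 3.72e-05), the TLX3 mean being at the array medians. Mir15b, from the paralogous cluster, was at 5.21, 4.68 and 5.14 in TLX3 arrays and at 7.04, 6.84 and 7.16 in Rag2-/- arrays (difference -2.004 ± 0.17, limma adjusted p = 0.000103). Its neighbour Mir16-2 was at 4.13, 4.31 and 4.57 against 6.18, 6.18 and 6.53 (-1.96 ± 0.16, limma adjusted p = 9.62e-05). In both clusters the 15-type hairpin was lower in every TLX3 array.

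Mir16-1, which lies beside Mir15a and encodes the same miR-16-5p strand as Mir16-2, did not follow. It was at 6.80, 6.13 and 6.53 in TLX3 arrays and at 6.70, 6.29 and 6.53 in Rag2-/- arrays, a difference of -0.02 ± 0.19 with overlapping groups. The same seed, AGCAGCA, is also carried by Mir195a and Mir497 of another cluster, and these differed in opposite directions. Mir195a had a difference of -0.85 (limma adjusted p = 0.00597) and Mir497 one of 0.94 (limma adjusted p = 0.000992), both short of the minimum difference and each without overlap between groups. Over the 6 loci with this seed, 3 fell, 0 rose and the median difference was -1.41. Of all probe sets, 5.41% fell and 2.59% rose. Whether the loci of 1 cluster differ from each other was not tested.

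The mir-17-92 polycistron, amplified in human lymphomas, was lower at its host and at the 5 of its 6 hairpins that were measured. Its host transcript Mir17hg was at 6.18, 5.97 and 6.36 in TLX3 arrays and at 7.32, 7.47 and 7.36 in Rag2-/- arrays, a difference of -1.21 ± 0.14 (limma adjusted p = 0.000415). Among the hairpins, Mir19a, whose strand has been reported to act with Notch1 in mouse T-ALL, was at 4.14, 4.68 and 3.67 against 6.16, 6.18 and 6.18, the largest fall of the unit (-2.01 ± 0.22, limma adjusted p = 0.000372). Both its means lay under the array medians. Mir18 was at 6.52, 6.47 and 5.57 against 7.83, 7.72 and 7.76, with TLX3 replicate 3 well under the other two (-1.59 ± 0.23, limma adjusted p = 0.00118). Mir20a (-1.25) and Mir17 (-1.19) fell as well, and Mir19b-1 (-0.81, limma adjusted p = 0.00266) passed the adjusted p without the minimum difference, which it reached after cyclic loess (-1.06). For all 5 hairpins measured by a single-symbol probe set and for the host, every TLX3 array lay below every Rag2-/- array. The sixth hairpin has no single-symbol probe set and was not analysed here.

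The 2 paralogous polycistrons were lower in part. On the X chromosome, Mir363 fell by 1.58 ± 0.16 (limma adjusted p = 0.00026), at 3.88, 4.27 and 4.03 in TLX3 arrays and 5.54, 5.90 and 5.48 in Rag2-/- arrays. Mir20b stood just under the minimum difference (-0.9998, limma adjusted p = 0.000848), which it passed after cyclic loess (-1.29), Mir106a (-0.37) and Mir19b-2 (-0.33) did not pass, and Mir92-2 was level at 0.01. Of the unit inside Mcm7, a replication licensing gene, Mir106b fell by 1.003 ± 0.18 (limma adjusted p = 0.00262), but stayed under the minimum difference with array weights (-0.84) and when TLX3 replicate 1 (-0.86), TLX3 replicate 2 (-0.95) or Rag2-/- replicate 1 (-0.99) was left out. Mir93 was at -0.81 (limma adjusted p = 0.00516). Mir25, also of that unit, was bright and level, at 7.61, 7.58 and 7.63 in TLX3 arrays against 7.59, 7.55 and 7.50 in Rag2-/- arrays. Over the 13 hairpins of the 3 polycistrons, 6 fell, 3 more were lower at the adjusted p alone, 4 did not pass, and the median difference was -0.9998. Of all probe sets, 5.41% fell and 18.2% were lower at the adjusted p.

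**Figure D3:**
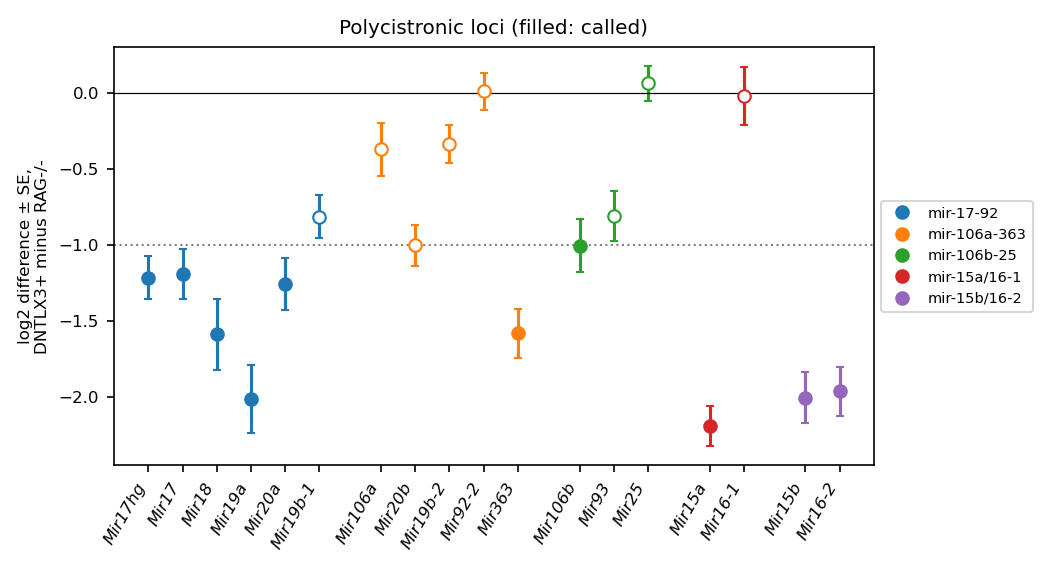
Log2 difference with its SE, TLX3 minus Rag2-/-, for the host Mir17hg and 17 hairpins of 5 polycistrons, in the order of the hairpins along each transcript; filled symbols are called and the dotted line marks the minimum difference of 1. Mir92-2, Mir25 and Mir16-1 lie at 0 beside neighbours that are lower.

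By seed, the miR-17 group (AAAGUGC: Mir17, Mir20a, Mir20b, Mir93, Mir106a and Mir106b) had 3 of 6 loci called lower, 5 of 6 lower at the adjusted p, none higher and a median difference of -1.001. Of all probe sets, 5.41% were called lower, 18.2% were lower at the adjusted p and 24.6% higher. The miR-19 group (GUGCAAA: Mir19a, Mir19b-1 and Mir19b-2) had 1 of 3 called and a median of -0.81. The miR-25/92 group (AUUGCAC: Mir25, Mir32, Mir92-2, Mir92b, Mir363 and Mir367) was mixed, with Mir363 called lower, Mir92b at 0.64 (limma adjusted p = 0.0051) and a median of 0.04. The miR-103/107 group (GCAGCAU), known as regulators of metabolism, split in the same way: Mir103-2 fell by 2.11 ± 0.20 (limma adjusted p = 0.000198), at 4.01, 4.16 and 4.83 in TLX3 arrays and 6.40, 6.46 and 6.49 in Rag2-/- arrays. Mir107 was at -0.83 (limma adjusted p = 0.00385), and Mir103-1, which encodes the same miR-103-3p strand as Mir103-2, was at 0.43 (limma adjusted p = 0.0506).
miR-103-3p: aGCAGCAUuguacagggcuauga
The measured let-7 loci, whose strand restrains growth genes in many tissues, showed no common fall. Of 9, 1 rose, 3 more were higher at the adjusted p alone and 5 did not pass. That is 44.4% higher at the adjusted p, where 24.6% of all probe sets were. Their median difference was 0.53 (0.34 after cyclic loess). Mirlet7f-2 was the rise (1.07, limma adjusted p = 0.00286), from a mean of 3.19 and lost after quantile normalization again (0.77) or without TLX3 replicate 1 (0.92) or Rag2-/- replicate 3 (0.998). Mirlet7e (0.75) and Mirlet7i (0.28) were the only let-7 loci with a group mean above the array medians. Of 6 mir-30 loci, Mir30e fell (-1.19 ± 0.18, limma adjusted p = 0.00146) and 5 did not pass.

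Among loci known in blood cells, Mir142, a hairpin restricted to the haematopoietic lineage and needed for lymphocyte development, fell. It was at 5.91, 6.11 and 6.77 in TLX3 arrays and at 7.33, 7.83 and 7.76 in Rag2-/- arrays, and was 2.59-fold lower (-1.37 ± 0.23, limma adjusted p = 0.00213). TLX3 replicate 3 was the nearest to the Rag2-/- values, without reaching them. Myeloid and NK cells carry this microRNA too, and 17 of 20 myeloid and 9 of 13 NK markers fell with it, whose part was not tested.
miR-142a-3p: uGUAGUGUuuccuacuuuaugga
Mir150, which targets Myb and rises in mature lymphocytes, was at 7.59, 7.57 and 7.65 against 7.77, 7.83 and 7.996 (-0.26 ± 0.12, limma adjusted p = 0.109). Mir155, induced by activation, was at -0.37 (limma adjusted p = 0.0958), and the hypoxia-induced Mir210 at 0.12. Mir128-2, made from an intron of Arpp21, was at -0.57 (limma adjusted p = 0.0107), and its host fell by 1.35. In the mir-23a unit, Mir24-2 was higher at the adjusted p (0.96, limma adjusted p = 0.00124) while Mir23a (-0.05) and Mir27a (-0.26) were not. Of 64 measured loci listed as known in thymocytes or T-ALL, 10 fell, 3 rose, 14 more passed the adjusted p alone and 37 did not pass. Of all 294 loci, 10.2% fell, 5.1% rose and 52% did not pass. Of all probe sets, 5.41% fell and 2.59% rose, and at the adjusted p alone 18.2% were lower and 24.6% higher.

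Other falls came from single hairpins. Mir505 was at 6.51, 5.99 and 6.67 in TLX3 arrays and at 7.76, 7.92 and 7.89 in Rag2-/- arrays, 2.76-fold lower. Mir301b (-1.74) fell with its neighbour Mir130b at -0.95 (limma adjusted p = 0.016). Mir148b (-1.57), Mir340 (-1.25), Mir28a (-1.14) and Mir3068 (-1.26) fell too. Mir7-1 fell by 1.08, which array weights (-0.98) or leaving out TLX3 replicate 2 (-0.97) took under the minimum difference. Mir145a, known from smooth muscle and stroma, fell by 1.30. None of 10 stromal and endothelial markers was called, and the part of such cells in this fall was not tested. Mir669b (-2.19) and Mir297b (-1.83), whose symbols belong to repeated hairpin families, were among the largest falls, and signal of near-identical copies cannot be told apart by a probe set. Mir680-1 (-1.76), Mir680-2 (-1.37) and Mir680-3 (-0.77, not called) encode 1 strand from hairpins of 109, 110 and 87 bases. Whether their probe sets share signal was not tested. Mir692-1 fell by 1.14 at levels of 8.59 to 9.06 in TLX3 arrays and 9.69 to 10.12 in Rag2-/- arrays, a call lost after cyclic loess (-0.999) and with array weights (-0.994). Mir687 (-1.73), Mir1839 (-1.68), Mir677 (-1.19) and Mir709 (-1.01) complete the 30, and Mir709 was not called with array weights (-0.995) or when TLX3 replicate 2 (-0.90) or Rag2-/- replicate 2 (-0.95) was left out.

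The rises were smaller, and 5 of the 15 had both means above the array medians, as did 7 of the 30 falls. Mir326, reported to act on Ets1 in T helper cells, was at 7.99, 7.72 and 8.02 in TLX3 arrays and at 6.64, 6.92 and 6.74 in Rag2-/- arrays. It was 2.21-fold higher (1.14 ± 0.14, limma adjusted p = 0.000558). Mir328 was at 8.94, 8.66 and 8.87 against 7.57, 7.92 and 7.59 (2.18-fold, limma adjusted p = 0.000708). Mir615, whose gene lies within the span of Hoxc5, was at 8.80, 8.52 and 8.49 against 7.44, 7.56 and 7.45 (2.17-fold, limma adjusted p = 0.000487). Mir375, known from pancreatic islets, was at 7.74, 7.35 and 7.66 against 6.21, 6.58 and 6.62 (2.17-fold, limma adjusted p = 0.0011), and was not called without Rag2-/- replicate 1 (0.99). Mir212, which CREB induces together with its neighbour Mir132, was at 8.41, 7.96 and 7.98 against 7.06, 7.02 and 6.97 (2.15-fold, limma adjusted p = 0.000859), and lost its call without TLX3 replicate 1 (0.96). Mir132 was at 0.78 (limma adjusted p = 0.00563). In all 5 the TLX3 arrays lay above the Rag2-/- arrays.
miR-326-3p: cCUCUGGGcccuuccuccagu
miR-212-3p: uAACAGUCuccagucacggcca
miR-615-3p: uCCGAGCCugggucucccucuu

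The other 10 rises started from dim levels. Mir411 (1.38), Mir323 (1.19), Mir434 (1.10) and Mir412 (1.06) belong to the imprinted Dlk1-Dio3 region of chromosome 12. In its 3 clusters 40 loci were measured, of which these 4 rose, 14 were higher at the adjusted p alone, 1 was lower and 21 did not pass. That is 45% higher at the adjusted p, where 24.6% of all probe sets were. Their median difference was 0.37 as deposited, 0.14 under the repeated quantile normalization, with 14 of the 40 negative, and 0.11 under cyclic loess, with 16 negative. The 11 of the 40 with a group mean above the array medians had none called and a median of 0.41 (0.31 under cyclic loess). Among them, Mir341 was at 9.50, 8.99 and 9.28 in TLX3 arrays and 8.59, 8.69 and 8.66 in Rag2-/- arrays (0.61, limma adjusted p = 0.0111). After cyclic loess Mir323 (0.87), Mir434 (0.77) and Mir412 (0.78) were no longer called, nor were they under the repeated quantile normalization (0.91, 0.79 and 0.85). Mir434 and Mir412 also lost their calls with array weights. Leaving out TLX3 replicate 1 took Mir434 (0.96) and Mir412 (0.91) under the minimum difference, as leaving out Rag2-/- replicate 1 did Mir412 (0.96). Of the 10 dim rises, Mir411 and Mir133a-1 were the only ones still called in each of the 14 settings that kept every locus and the minimum difference. Mir133a-1 (1.38), Mir151 (1.23) and Mir199b (1.18) rose as well, the last 2 not after cyclic loess (0.94 and 0.88). Mir199b was not called under the repeated quantile normalization either (0.92). Mir182 (1.15) varied between 3.96 and 5.33 in the TLX3 arrays and was not called without TLX3 replicate 3 (0.86), under the repeated quantile normalization (0.87) or under cyclic loess (0.84). Mir203 (1.09), of keratinocytes, was at 4.74 in TLX3 replicate 1 and at 3.47 and 3.24 in the others (0.63 without replicate 1, not called). It also lost its call under both rescalings (0.77 and 0.74), with array weights (0.77), with all probe sets fitted and without any 1 of the Rag2-/- arrays. The epithelial mir-200 family had 0 of 4 loci called or past the adjusted p, and Mir205 was at -0.51 (limma adjusted p = 0.0876), while 7 of 14 thymic epithelial markers fell. The 6 loci set in the Hox clusters (Mir10a, Mir10b, Mir196a-1, Mir196a-2, Mir196b and Mir615) had differences of 0.33 to 1.12, with Mir615 called and 3 others past the adjusted p. That is 66.7% of these loci higher at the adjusted p, where 24.6% of all probe sets were. Under cyclic loess their median was 0.30 in place of 0.56, and Mir196a-2 (0.01) and Mir10a (0.11) were near 0.

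Among hosts of known strand, those of the fallen hairpins were mostly not past the adjusted p. For 96 loci a host was measured, meaning a gene whose span holds the hairpin on the same strand in the RefSeq table (97 pairs, 76 hosts). Of the 10 pairs with a locus called lower, the host was called in 0, where 5.41% of all probe sets fell and 2.59% rose. The host passed the adjusted p in 1 pair, where 18.2% of all probe sets were lower and 24.6% higher. That pair was Mir28a (-1.14) in Lpp, an actin-associated adhesion gene (-0.98, limma adjusted p = 0.0021). In the other 9, Mir103-2 (-2.11) stood beside Pank2 at -0.17, Mir148b (-1.57) beside Copz1 at -0.04, Mir7-1 (-1.08) beside Hnrnpk at -0.11, Mir106b (-1.003) beside Mcm7 at 0.15 and Mir30e (-1.19) beside Nfyc at 0.30. Mir340 (-1.25) lay in Rnf130 at -0.28, Mir677 (-1.19) in Atp5b at -0.05 and Mir301b (-1.74) in 2610318N02Rik at 0.36. Dleu2, the host of Mir15a, gave no usable level, with means of 2.42 in TLX3 arrays and 2.38 in Rag2-/- arrays. The rise of Mirlet7f-2 (1.07) stood beside a host, Huwe1, at -0.84 (limma adjusted p = 0.012).

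For some hosts the tables used here give no strand, and these pairs are not among the 97. Smc4, a condensin subunit that spans Mir15b and Mir16-2, was at -0.89 (limma adjusted p = 0.00149), and Arrb1, which spans Mir326, at -0.99 (limma adjusted p = 0.00102) where the locus rose. Hoxc5, which spans Mir615, was at 0.99 (limma adjusted p = 0.0011). Rb1, the retinoblastoma tumour suppressor, which spans the fallen Mir687, was at -0.70 (limma adjusted p = 0.00206). Smc4 and Rb1 were thus lower beside loci that fell. Over the 97 pairs the differences of locus and host had a Pearson correlation of 0.06 and a Spearman correlation of 0.10, given as a description of points that share the same 6 arrays and in part the same host. The hosts Tmem245 (-1.32), Arpp21 (-1.35) and Copz2 (-1.55) were called lower and their loci Mir32 (-0.62), Mir128-2 (-0.57) and Mir152 (0.51) were not. Fgf13, the host called higher (1.10, limma adjusted p = 0.000357), holds Mir504, which was at 0.05. A test of the difference between locus and host was not made.

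**Figure D4:**
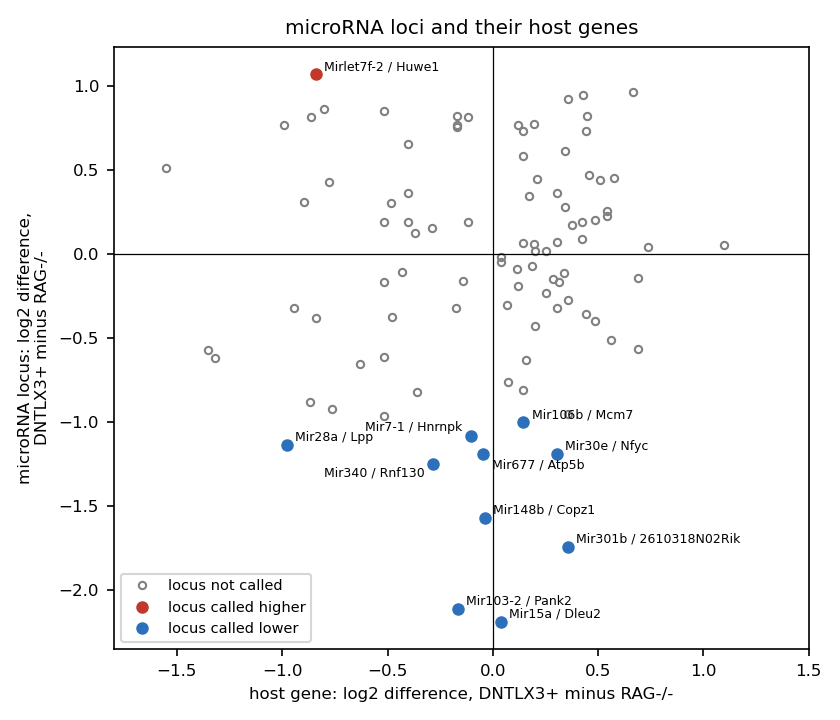
Log2 difference, TLX3 minus Rag2-/-, of the microRNA locus (vertical axis) and of its host gene (horizontal axis) for 97 pairs on the same strand; filled symbols are called loci, with names. The 10 pairs with a called fall lie between -0.98 and 0.36 on the host axis.

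Base composition went with level. Over the 253 loci with a hairpin in the table, the percentage of G and C had a Pearson correlation of 0.77 with the mean level and 0.08 with the difference (0.24 after cyclic loess). Among the 63 with a group mean above the array medians, its correlation with the difference was 0.60 (Spearman 0.54). These were chosen by the higher group mean, so a dim locus could enter through its difference. With or without a hairpin, 17 called falls passed this choice, of which 7 had both means above the medians. Of called rises, 5 passed, all with both means above. The choice can itself shape this correlation, so its contrast with 0.08 cannot be read. The 22 called falls with a hairpin had 36.8% to 62.4% G and C (median 45.3%) and the 11 called rises 42.2% to 69.2% (median 52.3%), against a median of 47.4% over all. These are descriptions across loci on shared arrays, and the part of base composition in the differences was not tested.

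**Figure D5:**
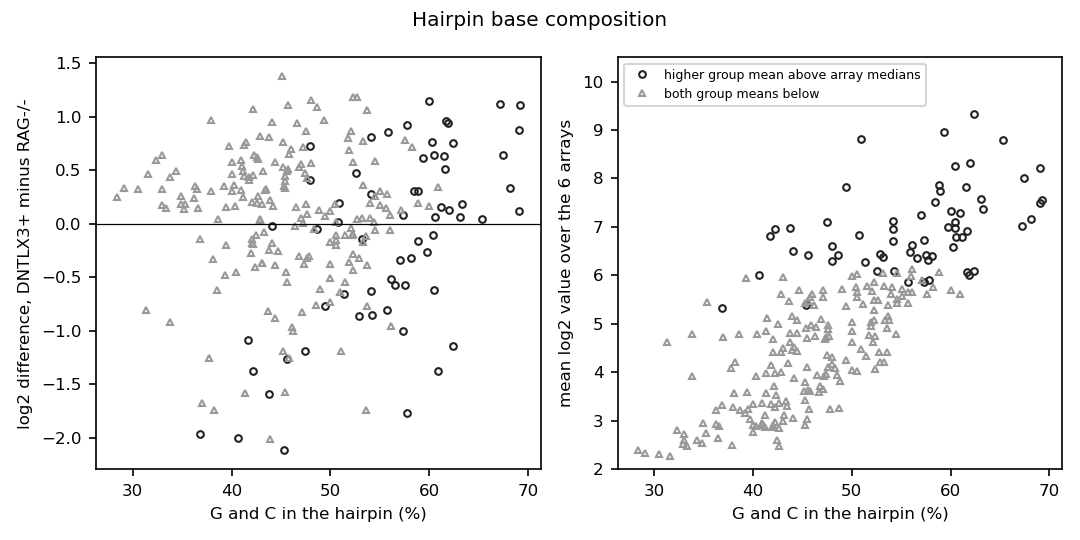
Percentage of G and C in the hairpin (horizontal axes) against the log2 difference, TLX3 minus Rag2-/- (left), and against the mean log2 value over the 6 arrays (right) for 253 loci; circles are loci with a group mean above the array medians and triangles the others. The right panel slopes upward, and the left panel shows no slope over all 253 loci (correlation 0.08).

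The genes that make and use microRNAs included 5 falls. Of 27 measured, 5 fell (18.5%, where 5.41% of all probe sets fell), 0 rose (2.59% of all), 5 more were lower and 5 higher at the adjusted p alone without the minimum difference, and the median difference was -0.29. Of these 27, 2 averaged under the array medians in TLX3 arrays and 3 in Rag2-/- arrays. With probe sets under the median left out, 8.42% of the remaining probe sets fell, 2.72% rose and their median difference was -0.11. The nuclear cutter Drosha was at 0.03, its partner Dgcr8 at -0.29, the exporter Xpo5 at 0.29 and Dicer1 at -0.46 (limma adjusted p = 0.0847). Among effectors, Ago3 averaged 6.73 in TLX3 arrays and 7.96 in Rag2-/- arrays and fell by 1.23 ± 0.15 (limma adjusted p = 0.000611). The Argonaute-binding scaffolds Tnrc6b (-1.25) and Tnrc6a (-1.004) fell, as did the helicase Ddx17 (-1.03) and Tut4 (-1.17), which adds uridines to let-7 precursors. Ago2 was at 0.12 and Ago1 at -0.44. Lin28a (0.49) and Lin28b (0.45), which block let-7 maturation, passed the adjusted p alone, Lin28b from means under the array medians. Ran, the export GTPase, was at 0.79 (limma adjusted p = 0.00197). Without TLX3 replicate 1, only Ago3 (-1.09) and Tut4 (-1.05) of the 5 were still called, while Tnrc6b (-0.91), Tnrc6a (-0.75) and Ddx17 (-0.94) were under the minimum difference. Tnrc6a was also under it without Rag2-/- replicate 1 (-0.95) or 3 (-0.997). The falls numbered 2 under the repeated quantile normalization (Ago3 and Tnrc6b), 3 under cyclic loess or array weights, and 0 with limma's treat.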

How the data were processed

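Total RNA was labelled with biotin and hybridised to 6 Affymetrix arrays, 3 per group, per the labels. The authors deposited log2 values per probe set per the submitters' processing notes, which name RMA, affy and R 2.9.0. RMA evens out array distributions, yet the spread of the tested values still differed between arrays, hence the rescaled alternatives. For the build, the sources used here give nothing. The 6568 probe sets numbered before the genome-ordered ones, which have no gene, were left out, and 28192 were tested with limma 3.58.1 (lmFit, eBayes, two-sided) in R 4.3.3, no covariate, Benjamini-Hochberg over all of them. Only 6 arrays limit the precision. The members and lists were chosen with earlier results of these data known. Replicate numbers did not pair the samples (correlations of deviations -0.11, 0.06 and -0.00). Named loci are those called, those above the array medians (in part as counts), a list known in thymocytes or T-ALL, and clusters of at least 3. Clusters join hairpins within 10 kb on 1 strand. The fit was tested on simulated data. Alternatives are quantile normalization again, equal medians, cyclic loess, 2 filters on dim probe sets, trend with robust estimation, array weights, replicate block, mean of probe sets, all probe sets, treat, a smaller minimum difference and leaving out arrays.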

Additional observations from a re-analysis of the deposited data

Results flagged for a closer look

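Probe sets that carry several symbols were not used above, and 37 of them list a microRNA among their symbols. Of these, 4 rose and 7 fell in TLX3 cells by the same limma rule (adjusted p under 0.05, log2 difference of 1 or more in size), where 2.59% of all probe sets rose and 5.41% fell. Each also carries another symbol, so its signal need not come from the microRNA locus. The median log2 difference of the 37 probe sets was 0.14. No locus can be named from them.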

How the results depend on the processing

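Of the 45 calls, 26 of 30 falls and 5 of 15 rises were kept in each of 14 settings (3 rescalings, 3 other fits, 2 other feature choices and 6 arrays left out). Quantile normalization again kept 30 falls and 8 rises, and cyclic loess 29 and 7. Cyclic loess gave 9 rises and 52 loci higher at the adjusted p alone. The median difference was -0.0416 with quantile normalization again and -0.10 with cyclic loess, where it was 0.043 and 0.005 over all probe sets. The sign of the median of the loci is thus not settled. With probe sets under the 25th percentile left out, 149 loci were tested, giving 6 rises, 22 falls and a median of 0.0422. At the adjusted p, 43 of these loci were higher and 44 lower. Of all probe sets kept there, 2.57% rose and 6.87% fell. A locus left out could not be called, so a smaller count need not mean a lost call. With probe sets under the median left out, fewer loci were tested (68), giving 5 rises and 10 falls. At the adjusted p, 24 of them were higher and 19 lower. Limma treat gave 0 rises (63 loci were higher at the smaller minimum difference of 0.58) and 7 falls (54 at 0.58). The processing genes had 2 falls after quantile normalization again, 3 after cyclic loess, 3 with array weights, 0 with treat, and 1 rise at 0.58. Without each array in turn, rises numbered 12 to 23 (23 without TLX3 replicate 2), falls 29 to 34, loci higher at the adjusted p alone 51 to 87 (51 without Rag2-/- replicate 1), lower 47 to 63, processing genes lower 2 to 5, and the median difference 0.07 to 0.19. No locus reversed a call. The causes were not tested. The replicate numbers did not pair the samples, and with the replicate block 15 loci rose and 30 fell. Dim signal limits 211 loci.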
